A study of Mus musculus with 6 samples.

Results

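The serpin genes of the mouse were described across 6 microarrays of fibroblasts undergoing reprogramming. Every array gene whose name is Serpin followed by a clade letter from a to i, a number and at most 1 further letter was taken. This gave 58 genes read by 76 probes, of 27376 gene names and 41174 probes on the array, and no measured value entered the choice. Each Agilent 1-colour array measured the RNA of mouse embryonic fibroblasts (MEFs) at day 8 of reprogramming. All cultures were described as carrying the factors abbreviated SKO in the labels, delivered by virus. They were kept for 6 days in serum medium with LIF, a cytokine that sustains mouse stem cells. Besides SKO, the Gadd45a cultures received Gadd45a, a stress-induced nuclear protein. The G39A cultures received G39A, which the design text calls a negative mutant of Gadd45a, and the Flag cultures received Flag as the control. Each of the 3 groups had 2 arrays, numbered replicate 1 and replicate 2, and the labels leave unsaid whether these were separate cultures. All p-values therefore describe the spread among these 6 arrays, which may be technical.

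Serpins are proteins of a common fold. The inhibitory members offer a protease an exposed reactive loop as bait. When the protease cuts the loop, the serpin snaps into a new shape and traps the enzyme in a covalent complex, which is then cleared by receptors of the LDL receptor family. Other serpins have lost the inhibitory function and act as hormone carriers, collagen chaperones or signalling proteins. Clade A genes encode mainly secreted proteins of the liver, and in mice the antichymotrypsin and antitrypsin genes have multiplied into clusters. Clade B genes encode mainly intracellular inhibitors that shield cells from their own or from leukocyte proteases. In fibroblasts the best known members include protease nexin 1 (Serpine2), pigment epithelium-derived factor (Serpinf1), the C1 inhibitor (Serping1) and the collagen chaperone Hsp47 (Serpinh1).

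Between 57.0% and 62.9% of non-control spots were well above background on each array. This is Feature Extraction's own mark for a spot brighter than its local background, and no spot was saturated. Arrays of the same replicate number resembled each other (r 0.989 to 0.994 over log2 signals) more than arrays of the same group (r 0.890 to 0.893). Replicate 2 arrays of all 3 groups were on 1 slide. The Gadd45a and Flag arrays of replicate 1 shared another slide and the G39A array of replicate 1 was on the third, so replicate number and slide cannot be told apart. Pou5f1, a pluripotency factor, gave signals of 3.57 to 4.40 on the replicate 2 arrays, none well above background, against 5153 in Gadd45a, 6363 in G39A and 3851 in Flag on replicate 1. Gadd45a itself gave 1870 in Gadd45a, 2147 in G39A and 2309 in Flag on replicate 2, and 560 in Gadd45a, 1395 in G39A and 1017 in Flag on replicate 1. The array labelled Gadd45a was thus the lowest of its replicate number both times, and the label of that group was not borne out by this probe; whether the probe reads the viral transcript was not tested. Klf4 ranged from 17372 to 19703 on replicate 2 and from 15458 to 16286 on replicate 1. Sox2 was well above background only in Flag on replicate 2, at 21.9. It was dim on every replicate 1 array, where Pou5f1 was bright. Whether the Sox2 probe reads a viral transcript was not tested. Gadd45a arrays below are the arrays so labelled, and directions drawn from them carry the limit that this label was not borne out.

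Of the 58 serpin genes, 17 had a probe well above background on all 6 arrays, 19 had one on 1 to 5 arrays at most, and 22 had none on any array. Clade A was mostly dark, with 14 of its 21 genes without a detected probe. Clade B held 26 genes, of which 5 were dark. Besides these, clade D (Serpind1) was dark, as were Serpine3 of the 3 clade E genes and Serpinf2 of the 2 clade F genes. The 22 dark genes were Serpina1b, Serpina1c, Serpina1f, Serpina3a, Serpina3b, Serpina3c, Serpina3k, Serpina3m, Serpina5, Serpina6, Serpina7, Serpina9, Serpina11, Serpina12, Serpinb3a, Serpinb3d, Serpinb9d, Serpinb9f, Serpinb13, Serpind1, Serpine3 and Serpinf2. They include Serpina6 and Serpina7, which carry cortisol-type steroids and thyroid hormone in blood, and Serpind1 (heparin cofactor II) and Serpinf2 (antiplasmin), which the liver secretes. A dark probe gives only a bound on its gene. Between 29 and 35 of the 76 serpin probes were well above background on the replicate 2 arrays, and between 25 and 32 on the replicate 1 arrays.

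**Figure D1:**
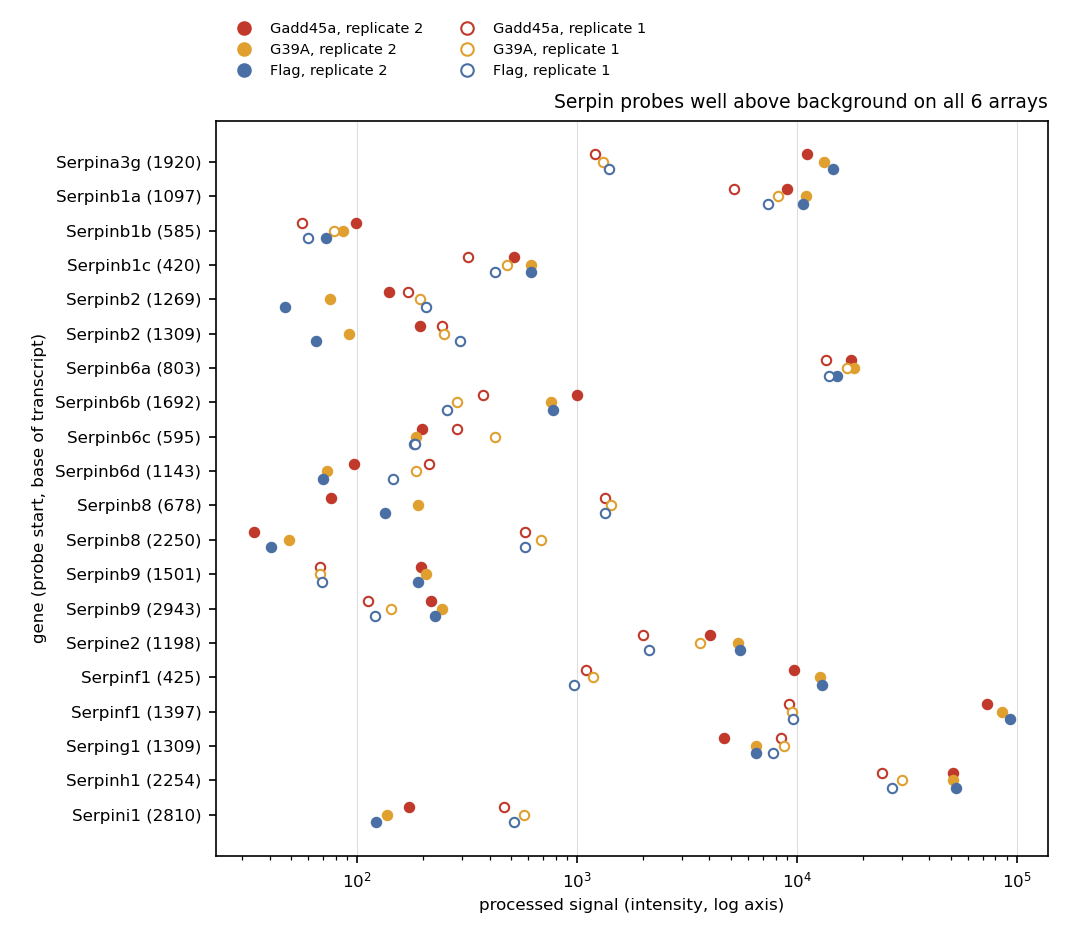
Processed signal (array intensity, log axis) of the serpin probes described in the text that were well above background on all 6 arrays. Each row is a probe, named by gene and by its first base in the transcript, filled points are replicate 2 and open points replicate 1, and levels of different probes cannot be compared. Serpina3g and both Serpinf1 probes have all replicate 2 points far to the right of all replicate 1 points, and Serpinb8 and Serpini1 have them to the left.

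Replicate 2 was first compared with replicate 1 within each group, with limma on log2 signals scaled to the 75th percentile of each array (3 arrays per replicate number, Benjamini-Hochberg adjustment over 25393 probes). Of the 31 serpin probes tested, from 25 genes, 22 passed (71.0%), beside 54.9% of all tested probes. Among them 17 probes of 14 genes rose on replicate 2 (54.8%), beside 31.0% of all tested probes. Another 5 probes of 4 genes fell (16.1%), beside 23.9% of all, and 9 probes did not pass. The median difference over the 31 probes was 0.60 (log2), also with probes dim on a whole replicate number set to their bounds, and 0.10 over all tested probes. Of the 21 probes bright on all 6 arrays, 7 were higher by at least 2-fold in all 3 groups (33.3%, beside 6.56% of all such probes) and 3 were lower (14.3%, beside 7.07%). With the normexp background correction the split was 17 probes higher and 9 lower. Normexp with an offset of 50 compresses dim signals by construction, and it gave smaller log2 differences for Serpina3n (3.39), Serpina3f (0.97), Serpinb10 (1.02), Serpinb9 at base 1501 (1.08), Serpinb7 (-1.07) and Serpinb6d (-0.63), all still past the threshold. Fewer cells of a type and less RNA per cell cannot be told apart in these bulk samples.

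Serpine2, protease nexin 1, inhibits thrombin and urokinase at cell surfaces. Its signals were 4041 in Gadd45a, 5407 in G39A and 5496 in Flag on replicate 2, against 1993, 3639 and 2122 in the same order on replicate 1. The replicate numbers did not overlap, and the difference was 1.16 ± 0.14 (log2, SE, adjusted p = 0.00322). Neuroserpin (Serpini1), which inhibits tissue plasminogen activator in the nervous system, moved the other way. It gave 172.8 in Gadd45a, 136 in G39A and 122 in Flag on replicate 2, against 464, 574 and 519 on replicate 1, again without overlap. It fell by 1.69 ± 0.18 on the log2 scale (adjusted p = 0.00241). The other clade I gene, Serpini2, was detected only in G39A on replicate 1, at 97.2.

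Among 14 tested serine proteases listed as serpin targets, 6 rose, 5 fell and the median was -0.07 (log2), near the 0.10 of all probes. Each gene of this and the other lists is read by its tested probe of highest mean signal. Beside the list counts, 31.0% of all tested probes rose and 23.9% fell. The target of Serpini1, tissue plasminogen activator (Plat), rose by 3.995 ± 0.080 (log2, adjusted p = 8.33e-05), and Htra1, a secreted serine protease, by 2.28 ± 0.12. Those that fell included the kallikreins Klk10 (-3.54 ± 0.17) and Klk1. Klk1 was not well above background on replicate 2 and was at least 2.98-fold lower there (adjusted p = 0.000140). Such bounds set the mean of the 3 arrays of the brighter replicate number against the mean of the 3 dim arrays. The dim arrays entered at the higher of their own signal and the lowest signal of a probe well above background there. The brighter arrays entered at their own signals, so where any of them was dim the value is not a strict bound. An adjusted p printed beside a bound is that of the limma fit to the signals themselves, dim ones included. Such a probe was tested only because it was bright on 1 replicate number, so its adjusted p is no separate support for the difference. Of 12 tested receptors and cofactors that bind or clear serpins, 5 rose and 5 fell. The syndecan Sdc1 (1.26 ± 0.09) and the lipoprotein receptor Vldlr (1.12 ± 0.09) rose, while megalin (Lrp2, -4.03 ± 0.12) and its chaperone Lrpap1 (-1.91 ± 0.10) fell.

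Of the serpins of the matrix and of complement, Serpinf1 and Serpinh1 rose and Serping1 did not pass. Serpinf1 is a secreted, non-inhibitory serpin that binds collagen and restrains blood vessel growth. At its probe starting at base 1397 of the transcript (mm9, chr11:75223568-75223627) it gave 72915 in Gadd45a, 85884 in G39A and 92957 in Flag on replicate 2, against 9168, 9540 and 9566 on replicate 1. The difference of 3.32 ± 0.09 (log2, adjusted p = 0.000119) stood beside one of 3.61 ± 0.12 at its second probe, where signals were 9703 in Gadd45a, 12765 in G39A and 12985 in Flag on replicate 2, and 1102, 1176 and 973 on replicate 1. Every replicate 2 signal of both probes lay above every replicate 1 signal of the same probe.

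Serpinh1 (Hsp47) is a chaperone of the endoplasmic reticulum that holds the collagen triple helix. Its probe (mm9, chr7:106493971-106494030) gave 51247 in Gadd45a, 51323 in G39A and 53029 in Flag on replicate 2, against 24337, 29967 and 27144 on replicate 1. The rise of 1.11 ± 0.09 (log2, adjusted p = 0.00127) went with the collagens and their folding enzymes, a list in which 22 of 27 tested genes rose, none fell and the median was 1.06. The fibrillar chains Col5a1 (3.20 ± 0.08) and Col3a1 (3.01 ± 0.08) rose further than Serpinh1 did in value, a difference that was not tested. Serping1, which blocks the complement proteases C1r and C1s, gave 4671 in Gadd45a, 6524 in G39A and 6541 in Flag on replicate 2, and 8452, 8767 and 7779 on replicate 1. All its replicate 2 signals lay below its replicate 1 signals, yet the difference of -0.34 ± 0.14 (log2) did not pass (adjusted p = 0.101), though it did with normexp (-0.36).

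**Figure D2:**
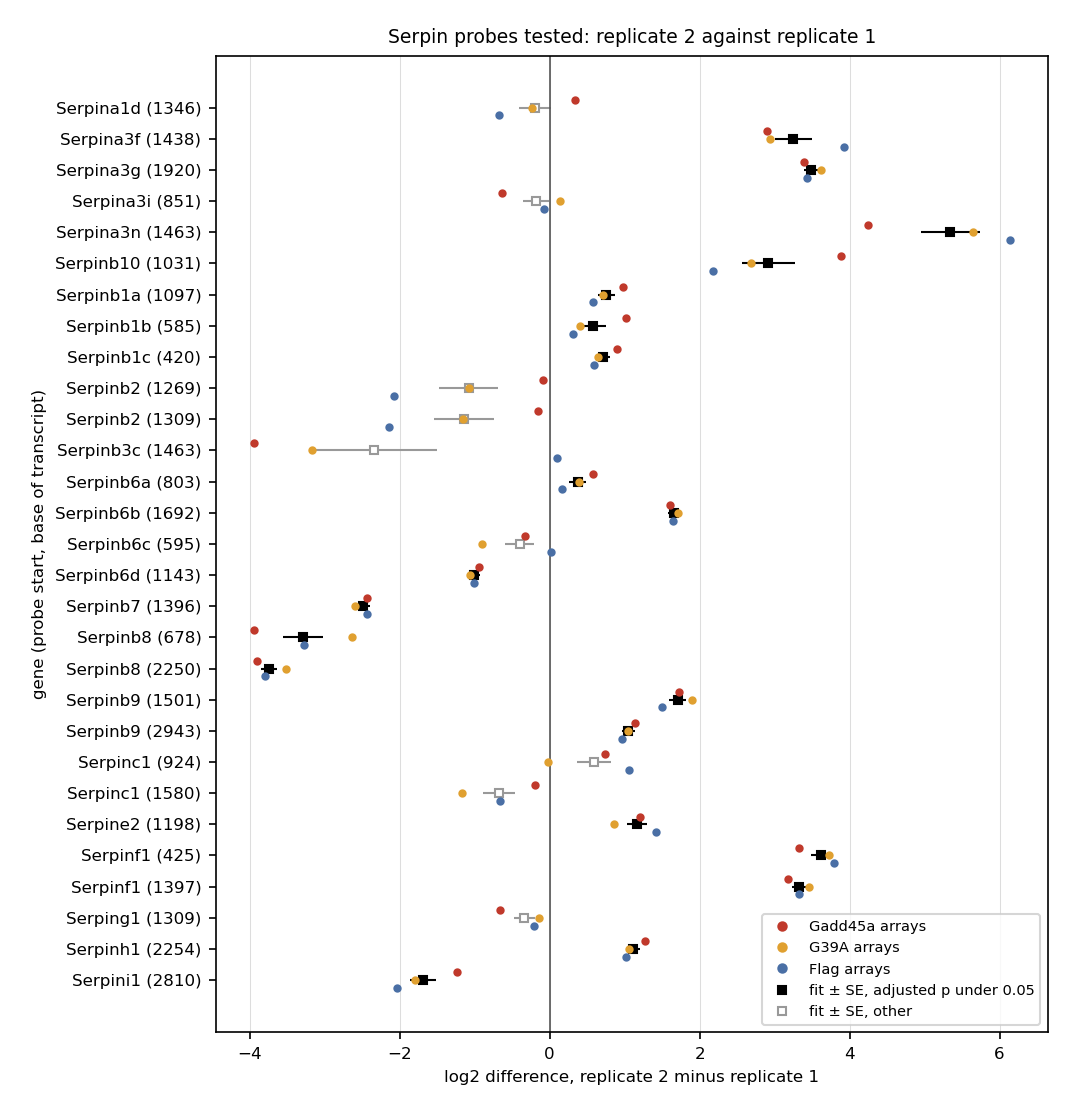
Log2 difference, replicate 2 minus replicate 1, of the tested serpin probes described in the text. Coloured points are the differences within Gadd45a, G39A and Flag, and squares with bars are the fitted difference ± SE, filled where the adjusted p was under 0.05. Filled squares right of 0 rose and those left of it fell. Serpina3f and Serpinb10 were not well above background on any replicate 1 array and Serpina3n on 1 of 3, so the places of these squares rest on dim signals.

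Clade A members that passed the test were all antichymotrypsin-like genes of 1 cluster on chromosome 12, and all rose. Serpina3g, an intracellular inhibitor of cathepsins in mouse lymphocytes, gave at its probe (mm9, chr12:105480045-105480104) 11148 in Gadd45a, 13307 in G39A and 14590 in Flag on replicate 2. Its replicate 1 signals were 1208.5, 1316 and 1395.5 in the same order, a difference of 3.48 ± 0.09 (log2, adjusted p = 0.000107) without overlap. Serpina3n is secreted and inhibits elastase and granzyme B. Its probe (mm9, chr12:105651918-105651977) gave 317 in Gadd45a, 1067 in G39A and 1290 in Flag on replicate 2, against 19.0, 26.1 and 19.0 on replicate 1, where only the G39A signal was well above background. In G39A, where both signals were measured, the difference was 5.64 (log2). The fitted difference over the 3 groups was 5.34 ± 0.39 (adjusted p = 0.000862), a value that rests on dim replicate 1 signals in Gadd45a and Flag.

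Serpina3f gave 59.1 in Gadd45a, 67.7 in G39A and 81.0 in Flag on replicate 2 at its probe starting at base 1438 (mm9, chr12:105458565-105458624). With 9.10, 10.8 and 5.51 on replicate 1, none well above background, it was at least 3.17-fold higher on replicate 2. The adjusted p of 0.000906 is that of the limma fit, which rests on these dim signals. Its second probe, at base 1837, was well above background in Gadd45a (25.3) and Flag (74.7) on replicate 2. It was so on no replicate 1 array. With the dim G39A signal (23.6) included, it was 1.64-fold higher on replicate 2 by the same measure, and it was not tested. Serpina3j was well above background in G39A (55.5) and Flag (63.6) on replicate 2, against no replicate 1 array. With its dim Gadd45a signal (13.8) included, it was 1.58-fold higher by that measure, also untested. The neighbouring gene Serpina3i did not pass, with 16.1 in Gadd45a, 26.6 in G39A and 26.5 in Flag on replicate 2 and 28.4, 29.5 and 28.7 on replicate 1 (-0.19 ± 0.17, log2, adjusted p = 0.406). Its Gadd45a signals were not well above background on either replicate number, and the others were near the background level.

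Of the antitrypsin genes, only Serpina1d was tested, on dim signals of 17.1 to 22.5 on replicate 2 and 16.8 to 37.0 on replicate 1 (-0.19 ± 0.21, log2, adjusted p = 0.486). Serpina10, an inhibitor of coagulation factors, was well above background in G39A (25.2) and Flag (21.8) on replicate 2 alone, near the background level, so no ratio is given. The remaining clade A genes are among the dark ones.

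The promoters of 4 of these Serpina3 genes are shown because the genes are neighbours with unequal results, Serpina3i being near the background level. The letters are the 250 bases before the annotated start, from RefSeq on GRCm38.p6, 5′ to 3′ on the coding strand, and capitals mark matches to TTCNNNGAA, the site read by STAT factors, sought on both strands.
Serpina3f, chr12:104214294-104214543, + strand: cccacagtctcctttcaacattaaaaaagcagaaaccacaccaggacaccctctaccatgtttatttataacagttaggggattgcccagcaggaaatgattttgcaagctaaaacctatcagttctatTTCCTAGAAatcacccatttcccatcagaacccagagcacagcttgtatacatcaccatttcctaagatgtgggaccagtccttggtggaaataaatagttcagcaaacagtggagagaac
Serpina3g, chr12:104235897-104236146, + strand: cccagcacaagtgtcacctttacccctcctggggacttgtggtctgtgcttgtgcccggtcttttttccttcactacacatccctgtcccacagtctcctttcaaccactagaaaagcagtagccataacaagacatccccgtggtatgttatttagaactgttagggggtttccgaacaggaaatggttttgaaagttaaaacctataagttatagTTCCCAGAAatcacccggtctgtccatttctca
Serpina3i, chr12:104262872-104263121, + strand: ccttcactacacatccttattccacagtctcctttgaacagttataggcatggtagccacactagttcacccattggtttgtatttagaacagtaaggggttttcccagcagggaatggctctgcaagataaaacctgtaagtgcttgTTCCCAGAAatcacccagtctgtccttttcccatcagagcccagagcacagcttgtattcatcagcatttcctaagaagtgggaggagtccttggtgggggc
Serpina3n, chr12:104406458-104406707, + strand: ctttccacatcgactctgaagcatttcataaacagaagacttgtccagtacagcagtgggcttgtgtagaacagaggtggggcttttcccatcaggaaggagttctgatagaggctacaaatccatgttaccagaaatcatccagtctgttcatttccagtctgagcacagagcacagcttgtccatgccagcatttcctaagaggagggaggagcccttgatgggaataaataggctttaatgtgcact
Serpina3f has its match 121 bases before the start shown, or 210 before its second annotated start, Serpina3g 33 and Serpina3i 102, and the Serpina3n window has none. A match stood in 7.02% of 32851 promoter windows of this length and in 10 of the 58 serpin windows. These came from 8 of the 49 serpin genes with a promoter in the table, the others being Serpina1f, Serpina11, Serpinb2, Serpinb6a and Serpinb9c. Serpina3i holds the same letters as Serpina3g, TTCCCAGAA, and did not pass the test, on signals near the background level.

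The lists of genes known to respond to the same signals as these serpins did not move in 1 direction. Of 15 tested acute phase and STAT3 target genes, 6 rose and 5 fell, with a median of -0.14 (log2). Il6st, the shared receptor chain of the interleukin 6 family, rose by 2.70 ± 0.11 and the transcription factor Cebpb by 2.22 ± 0.12, while the transcription factor Cebpd (-1.13 ± 0.08) fell. The acute phase protein Saa2, dim on all replicate 2 arrays, was at least 18.9-fold lower there (adjusted p = 0.000333). Of 37 tested interferon response genes, 7 rose and 4 fell, and their median difference was 0.74 in Gadd45a, 0.73 in G39A and -0.97 in Flag. The GTPase Iigp1 rose by 4.33 ± 0.49 and the peptide transporter Tap1 by 0.99 ± 0.13, and the antiviral synthetase Oas2 fell (-4.43 ± 0.57). Oas3, of the same kind, was dim on all replicate 2 arrays and at least 3.09-fold lower there (adjusted p = 0.00218).

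Tested clade B genes lie in clusters on chromosomes 13 and 1. On chromosome 13, 6 of 8 genes rose, 1 fell and 1 did not pass, while on chromosome 1, 1 of 5 rose, 2 fell and 2 did not pass. The difference between the clusters was not tested. Serpinb1a, an inhibitor of neutrophil elastase and cathepsin G, gave 8973 in Gadd45a, 11027 in G39A and 10627 in Flag on replicate 2, against 5200, 8169 and 7357 on replicate 1 (0.76 ± 0.11, log2, adjusted p = 0.00615). Its paralogue Serpinb1c gave 519, 616 and 616 on replicate 2, against 318, 480 and 423 on replicate 1, in the same order of groups (0.71 ± 0.10, adjusted p = 0.00554). Serpinb1b gave 99.2, 86.0 and 72.0 on replicate 2, against 55.8, 78.8 and 59.7 on replicate 1 (0.58 ± 0.17, adjusted p = 0.0431). Replicate numbers did not overlap for Serpinb1a and Serpinb1c, and did for Serpinb1b. The Serpinb1b call was lost when any array was left out (0.36 to 0.72) and without the filter on dim probes. Its second probe, at base 1467, was well above background only in Gadd45a on replicate 2 (42.7) and in G39A (32.2) and Flag (26.0) on replicate 1. The second Serpinb1c probe was dark on all 6 arrays.

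Serpinb6b, a mouse paralogue of the cathepsin G inhibitor Serpinb6a, gave 999.8 in Gadd45a, 761 in G39A and 776 in Flag on replicate 2, against 375, 283 and 257 on replicate 1. The rise of 1.65 ± 0.08 (log2, adjusted p = 0.000303) was without overlap. Serpinb6d fell by 1.01 ± 0.08 (log2, adjusted p = 0.00112), with 96.3, 72.6 and 69.8 on replicate 2 against 212, 184 and 146 on replicate 1 in the same order. Serpinb6a changed least of the genes that passed, with 17584, 18171 and 15171 on replicate 2 and 13513, 16885 and 14021 on replicate 1 (0.37 ± 0.11, adjusted p = 0.0469). The replicate numbers overlapped, and the call was lost when any array was left out and under quantile normalization, where the difference was 0.19. Its probe at base 1785 was well above background in G39A (23.5) and Flag (22.8) on replicate 1 alone, and its remaining probe was dark. Serpinb6c gave 198, 186 and 181 on replicate 2 and 283, 423 and 184 on replicate 1 (-0.40 ± 0.20, adjusted p = 0.157), again with overlap.

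Serpinb9, the inhibitor of granzyme B that protects cells from cytotoxic lymphocytes, rose at both probes. At base 1501 it gave 195 in Gadd45a, 207 in G39A and 189 in Flag on replicate 2, against 67.7, 67.4 and 69.2 on replicate 1 (1.71 ± 0.11, log2, adjusted p = 0.000625). At base 2943 it gave 216, 242 and 227 on replicate 2, against 112, 143 and 120.5 on replicate 1 (1.05 ± 0.09, adjusted p = 0.00115). All replicate 2 signals lay above all replicate 1 signals at each probe. The other detected Serpinb9 paralogues were each well above background on a single array: Serpinb9b in Flag on replicate 1 (45.2), Serpinb9c in Flag on replicate 2 (21.9), and Serpinb9e (31.2) and Serpinb9g (77.4) in Gadd45a on replicate 2. Of 9 tested cysteine proteases of the kinds that intracellular serpins bind, all 9 rose, beside 31.0% of all tested probes. Their median was 1.77 (log2), or 1.15 with Casp1 at its bound. Casp4 (3.41 ± 0.14) and Casp1, caspases of the inflammasome, had the smallest p. Casp1 was dim on all replicate 1 arrays and at least 1.996-fold higher on replicate 2 (adjusted p = 0.000152).

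On chromosome 1, the tested clade B genes fell or did not pass, except Serpinb10. Serpinb8, an inhibitor of the convertase furin in human cells, gave at its probe at base 2250 (mm9, chr1:109504731-109504790) 33.9 in Gadd45a, 49.0 in G39A and 40.4 in Flag on replicate 2. On replicate 1 it gave 578, 682 and 581, and it fell by 3.74 ± 0.11 on the log2 scale (adjusted p = 0.000124). At its probe at base 678 it gave 76.1, 189 and 134 on replicate 2, against 1337, 1429 and 1343 on replicate 1 (-3.29 ± 0.27, adjusted p = 0.00115). Neither probe's replicate numbers overlapped. Serpinb7 (megsin), known from kidney mesangial cells and skin, gave 29.4 in Gadd45a, 19.8 in G39A and 18.6 in Flag on replicate 2, where the G39A signal was not well above background. With 182, 145 and 104 on replicate 1, it fell by 2.49 ± 0.09 (log2, adjusted p = 0.000151).

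Serpinb10 (bomapin), described in blood cell precursors, was the exception. Its probe at base 1031 gave 101 in Gadd45a, 80.2 in G39A and 71.3 in Flag on replicate 2 and was not well above background on replicate 1, with 7.86, 15.2 and 16.3. It was at least 3.85-fold higher on replicate 2. The adjusted p of 0.00351 is that of the limma fit, which rests on the dim replicate 1 signals. Its other probe was dark on all 6 arrays.

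Serpinb2 (plasminogen activator inhibitor 2) differed by array within replicate 2. At base 1309 it gave 192 in Gadd45a, 92.1 in G39A and 64.8 in Flag on replicate 2, against 243, 249 and 295 on replicate 1 (-1.14 ± 0.40, log2, adjusted p = 0.0693). At base 1269 it gave 139.98, 75.1 and 46.9 on replicate 2, against 169.9, 193 and 205 on replicate 1 (-1.08 ± 0.40, adjusted p = 0.0801). Replicate numbers did not overlap at either probe, and without either Gadd45a array the differences of -1.64 and -1.58 passed the test.

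Serpinb3c, of the squamous cell carcinoma antigen group, gave 4.35 in Gadd45a, 4.63 in G39A and 26.3 in Flag on replicate 2, with only the Flag signal well above background. On replicate 1 it gave 76.5, 50.8 and 25.5 (-2.34 ± 0.84, adjusted p = 0.0762), a value that rests on dim replicate 2 signals in Gadd45a and G39A. Serpinb11 was well above background in Gadd45a (72.6) and Flag (29.7) on replicate 1 and on no replicate 2 array. With the dim G39A signal (20.8) of replicate 1 included, it was 1.61-fold lower on replicate 2 against the bounds there, and it was not tested. Serpinb5 (maspin), an epithelial serpin, was well above background in G39A (32.8) and Flag (28.1) on replicate 1 alone. With its dim Gadd45a signal (20.6) of replicate 1 included, Serpinb5 was 1.21-fold lower on replicate 2 against the bounds there. Serpinb12 in G39A (27.5) and Serpinb3b in Gadd45a (39.2) were detected on a single replicate 1 array each. The second probes of Serpinb3c and Serpinb12 were dark.

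Promoters of 4 chromosome 1 genes are shown because these neighbours, which share a short motif, fell, rose or did not pass. They are again 250 bases before the RefSeq start on GRCm38.p6, 5′ to 3′, with capitals at matches to TGANTCA, the palindromic site of AP-1 factors.
Serpinb7, chr1:107422439-107422688, + strand: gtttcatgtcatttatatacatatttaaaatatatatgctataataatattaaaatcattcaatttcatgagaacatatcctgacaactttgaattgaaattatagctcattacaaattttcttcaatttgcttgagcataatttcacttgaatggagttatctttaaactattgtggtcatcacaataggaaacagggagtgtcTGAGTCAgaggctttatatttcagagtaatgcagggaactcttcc
Serpinb2, chr1:107511173-107511422, + strand: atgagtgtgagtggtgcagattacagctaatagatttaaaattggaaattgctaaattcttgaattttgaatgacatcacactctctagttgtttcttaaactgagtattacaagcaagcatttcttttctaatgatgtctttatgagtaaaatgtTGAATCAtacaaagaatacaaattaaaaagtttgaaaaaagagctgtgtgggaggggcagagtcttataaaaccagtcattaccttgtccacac
Serpinb10, chr1:107528753-107529002, + strand: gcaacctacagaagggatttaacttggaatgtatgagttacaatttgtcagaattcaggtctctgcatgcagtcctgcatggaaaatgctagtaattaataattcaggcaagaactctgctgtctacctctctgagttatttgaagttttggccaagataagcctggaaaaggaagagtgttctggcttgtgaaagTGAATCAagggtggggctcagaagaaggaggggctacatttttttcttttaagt
Serpinb8, chr1:107589756-107590005, + strand: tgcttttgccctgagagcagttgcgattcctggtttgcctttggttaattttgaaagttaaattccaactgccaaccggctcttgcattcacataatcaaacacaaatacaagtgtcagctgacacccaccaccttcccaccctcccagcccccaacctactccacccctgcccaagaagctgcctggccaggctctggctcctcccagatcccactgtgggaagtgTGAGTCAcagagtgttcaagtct
The match begins 45 bases before the start in Serpinb7, 94 in Serpinb2 (181 before its second annotated start), 54 in Serpinb10 and 23 in Serpinb8. It stood in 6.75% of the 32851 windows. In this cluster 7 of 11 clade B genes with a promoter in the table held it, the others being Serpinb5, Serpinb11 and Serpinb12. Over the whole family it stood in 11 of 58 serpin windows, from 10 genes. The further genes were Serpina1b, Serpina1c and Serpina1d on chromosome 12, so the motif is not particular to this cluster. The motifs were chosen after the expression values were known. Of 10 searched, TATAAA was found in 12.4% of all windows and in 17 of the 58 serpin windows, from 14 genes. The octamer ATGCAAAT was found in 1.60% of all windows and, among serpins, before Serpinb3b and Serpinb3c. The interferon-stimulated element was in 2.98% of windows and before Serpinb6a and Serpinb9. The Smad element AGACAGAC (1.55% of windows) and the heat shock element (0.466%) were before no serpin gene. GGGCGG (32.7% of windows) was in 7 of the 58 serpin windows (7 genes), CACCC (52.0%) in 28 (25 genes) and the kappa B site (17.6%) in 8 (8 genes). Both strands were searched, and a match describes the letters only.

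Antithrombin (Serpinc1), the main plasma inhibitor of thrombin, was read by probes of opposite sign. At base 924 it gave 50.05 in Gadd45a, 42.1 in G39A and 63.5 in Flag on replicate 2, and 34.1, 51.8 and 31.6 on replicate 1, where the Gadd45a signal was not well above background (0.60 ± 0.23, log2, adjusted p = 0.0900). At base 1580 it gave 12.7 to 18.7 on replicate 2 and 22.6 to 34.7 on replicate 1 (-0.67 ± 0.21, adjusted p = 0.0508). The first passed under quantile normalization (0.77) and the second without either Gadd45a array (-0.92), so no direction is given for this gene. No tested serpin probe shared more than 34 of its 60 bases, in ungapped alignment, with a probe of another serpin. Probes were set against probes only, so likeness to the rest of another serpin's transcript was not tested.

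Lists of cell markers moved with the replicate number beside these serpins, and their part in the serpin differences was not tested. Of 15 tested fibroblast markers, 11 rose and none fell (median 1.74, log2), among them Pdgfra (4.79 ± 0.09) and Thy1 (2.67 ± 0.08). Of 12 tested epithelial and keratinocyte markers, 1 rose and 8 fell, with a median of -2.97, or -1.13 with the 5 genes dim on a whole replicate number at their bounds. Epcam was at least 27.9-fold lower (adjusted p = 7.36e-05) and Cdh1 at least 18.1-fold lower on replicate 2 (adjusted p = 8.33e-05), where both were dim on all arrays. Trp63, dim on all replicate 1 arrays, was at least 1.55-fold higher on replicate 2 (adjusted p = 0.0180). Their summed signal was 10888 to 12384 on replicate 2 and 19228 to 20195 on replicate 1. The pluripotent cell markers fell in 4 of 7 tested genes and rose in 1, Dppa2 (0.55 ± 0.08). Pou5f1 was at least 228-fold lower and Tdh at least 137-fold lower on replicate 2, where both were dim on all arrays (adjusted p = 7.36e-05 each). Of their 14 genes on the array, 3 were well above background on each replicate 2 array and 7 to 8 on replicate 1. The summed signal was 433 to 490 on replicate 2 and 7602 to 10397 on replicate 1. Pou5f1 alone gave 3851 to 6363 of the replicate 1 sums, and whether its probe reads a viral transcript was not tested.

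Macrophage and leukocyte markers rose in 8 and fell in 2 of 12 tested genes, with a median of 2.08 (log2), or 0.92 with the 3 genes dim on all replicate 1 arrays at their bounds. Lyz2 (2.85 ± 0.19) and Aif1 (2.02 ± 0.08) rose, and Itgam (-3.03 ± 0.27) and Cd68 (-0.89 ± 0.10) fell. Between 12 and 13 of their 14 genes were well above background on replicate 2 and 8 to 9 on replicate 1, and the summed signal was 6027 to 9532 on replicate 2 and 2268 to 2778 on replicate 1. TGF-beta targets of fibroblasts rose in 7 and fell in 4 of 15 tested genes (median 0.22). Tgfbi (3.41 ± 0.09) and Acta2 (2.69 ± 0.08) rose, and Skil (-1.59 ± 0.16) and Bhlhe40 (-1.14 ± 0.08) fell. Neural markers rose in 1 and fell in 5 of 6 tested genes, with the microtubule protein Map2 higher by 0.71 ± 0.11 and Syt1 (-5.34 ± 0.13) and Stmn2 (-4.40 ± 0.13) lower. Endothelial markers rose in 1, Emcn (2.09 ± 0.24), and fell in 3 of 7. The receptor Tek, well above background on 1 of 3 replicate 2 arrays, differed by -5.08 ± 0.20, and Cldn5, dim on all of them, was at least 1.76-fold lower there. Of 3 tested hepatocyte markers, Apob, dim on replicate 1, was at least 3.80-fold higher on replicate 2, Ahsg, dim on replicate 2, was at least 48.2-fold lower there, and transferrin (Trf) fell (-1.38 ± 0.26). The 1 tested trophoblast marker, Prl3d1, fell (-3.29 ± 0.28).

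**Figure D3:**
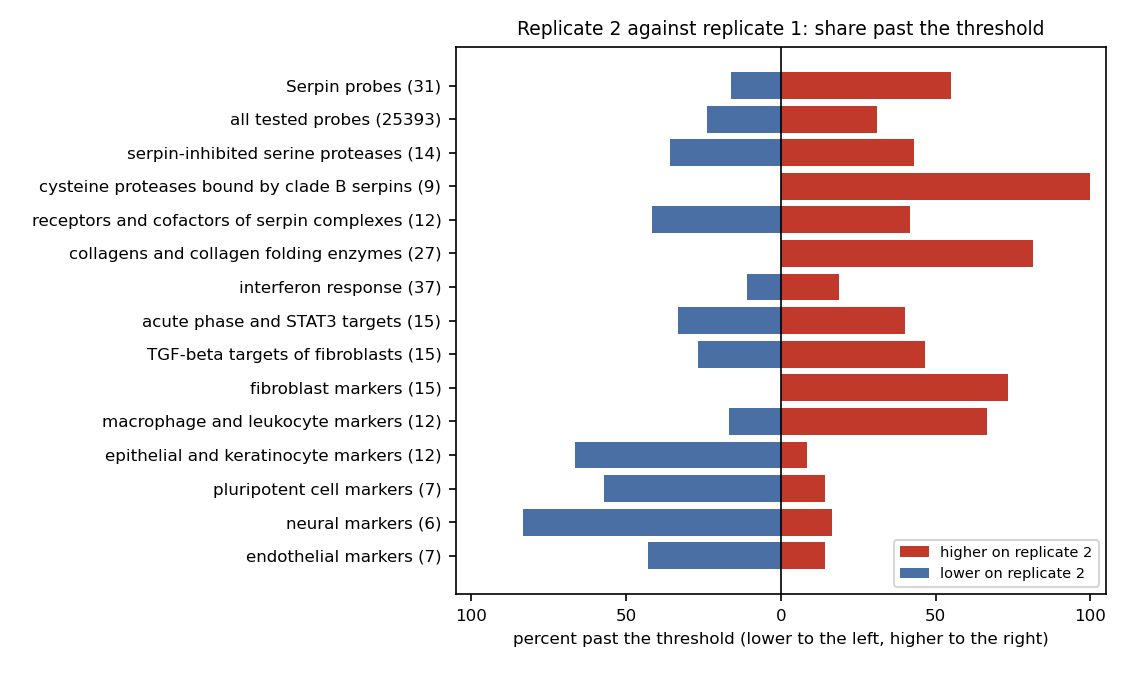
Percent of tested features past the threshold in replicate 2 against replicate 1, with higher on the right and lower on the left, for the serpin probes, all tested probes and the gene lists (genes) with at least 6 tested members, whose number is given in parentheses. Of the serpin probes 54.8% were higher and 16.1% lower, beside 31.0% higher and 23.9% lower of all tested probes.

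The question of the study, which genes answer to Gadd45a, was addressed by comparing the 3 groups. No serpin probe passed the test in any comparison, and neither did any other probe (0.0% of 25393 called in each, lowest adjusted p 1.0, limma with 2 arrays per group). An unadjusted p under 0.05 was found for 136 probes in Gadd45a against Flag, 155 in Gadd45a against G39A and 115 in G39A against Flag, with 0 serpin probes among them. This fit leaves out the replicate number, so differences between the numbers enter its spread and a small p is hard to reach. In Gadd45a against Flag the SE of Serpinb7 was 1.47 (log2) in this fit and 0.10 with replicate number as a block. The replicate numbers pair the arrays, and with replicate number as a block the lowest adjusted p of a serpin probe was 0.482 in Gadd45a against Flag, 0.592 in Gadd45a against G39A and 0.995 in G39A against Flag. The comparisons share arrays, so their values are given side by side. Of the 21 serpin probes bright on all 6 arrays, 0 differed by over 1.5-fold in the same direction in both replicate numbers, as did 0.213% of all such probes higher and 0.296% lower in Gadd45a against Flag, 0.407% and 0.259% in Gadd45a against G39A, and 0.0277% and 0.0416% in G39A against Flag.

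With the block, 5 of the 31 serpin probes (16.1%) had an unadjusted p under 0.05 in Gadd45a against Flag, beside 7.88% of all tested probes, and none of the 5 passed adjustment. They included Serpinb7, Serpinb6b and Serpinb6d, each higher on the arrays labelled Gadd45a. Serpinb7 in Gadd45a exceeded Flag by 0.76 (log2) on replicate 2 and 0.76 on replicate 1, from signals of 29.4 against 18.6 and of 182 against 104 (adjusted p = 0.482 with the replicate block). The Flag signal of 18.6 lay near the lowest signal well above background on that array (17.1). Serpinb6b in Gadd45a exceeded Flag by 0.46 on replicate 2 and 0.50 on replicate 1, and Serpinb6d by 0.56 and 0.50 (adjusted p = 0.548 each with the block). These differences were near equal in both replicate numbers, although the signals themselves differed between the numbers. A small p with the block favours probes with like differences in both numbers. The likeness thus follows from how these probes were picked and is no separate support.

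Serpine2 was lower in Gadd45a than in Flag by 0.35 on replicate 2 and 0.14 on replicate 1, which did not reach an unadjusted p under 0.05.

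In Gadd45a against G39A, 6 of 31 serpin probes (19.4%) had an unadjusted p under 0.05 with the block, beside 8.27% of all. They included the same 3 genes, and the Gadd45a arrays are the same ones. Serpinb7 was higher in Gadd45a by 0.63 on replicate 2 and 0.47 on replicate 1, Serpinb6b by 0.46 and 0.56, and Serpinb6d by 0.47 and 0.35. The 0.63 of Serpinb7 rests on a G39A signal (19.8) that was not well above background. Serpine2 was also among them, and differed by -0.36 on replicate 2 and -0.72 on replicate 1, from signals of 4041 in Gadd45a against 5407 in G39A and of 1993 against 3639 (all 6 at an adjusted p of 0.592 with the block). In G39A against Flag, 0 of 31 reached an unadjusted p under 0.05, beside 3.0% of all tested probes.

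Some serpins had unequal group differences in the replicate numbers, which was not tested. Serpinb2 was higher in Gadd45a than in Flag by 1.67 (log2) on replicate 2 at both probes, while on replicate 1 the differences were -0.31 and -0.32. In G39A it was higher than in Flag by 0.54 to 0.71 on replicate 2 and differed by -0.28 and -0.44 on replicate 1. Serpina3n showed -1.93 in Gadd45a against Flag on replicate 2 and -0.04 on replicate 1, where neither signal was well above background, and -0.24 in G39A against Flag on replicate 2. Serpini1 showed 0.60 in Gadd45a against Flag on replicate 2 and -0.21 on replicate 1. Serpinb8 at base 678 showed -0.72 and -0.05, and at base 2250 it showed -0.15 and -0.05.

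The differences of Gadd45a from Flag in 4 further serpins that rose on replicate 2 lay between -0.32 and 0.15. Gadd45a minus Flag was -0.29 on replicate 2 and -0.25 on replicate 1 for Serpina3g, and 0.05 and -0.20 for Serpinh1. For Serpinf1 it was -0.25 and -0.11 at base 1397, and -0.32 and 0.135 at base 425. For Serpinb9 at base 1501 it was 0.15 and -0.08. On the same arrays, the median interferon response gene was higher in Gadd45a than in Flag by 1.99 on replicate 2 (36 of 37 genes higher) and by 0.15 on replicate 1 (30 of 37). G39A minus Flag gave 1.80 on replicate 2 (37 of 37 higher) and -0.12 on replicate 1 (8 of 37). Serpina3g and Serpinb9, both known to respond to interferon in mouse cells, thus stood between -0.29 and 0.15 in Gadd45a minus Flag, beside that list's median of 1.99 on replicate 2. The difference between them and the list was not tested.

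Serpinb6c had 423 in G39A and 184 in Flag on replicate 1, a difference of 1.01, and 0.08 on replicate 2. Serpine2 in G39A minus Flag was 0.01 on replicate 2 and 0.58 on replicate 1, where the G39A array was alone on its slide. Gadd45a minus Flag was -0.15 on replicate 2 and -0.55 on replicate 1 for Serpinb1a, -0.15 and -0.45 for Serpinb1c, and 0.23 and 0.58 for Serpinb6c. Serping1 gave -0.39 and 0.07, and Serpinb6a 0.31 and -0.10, with opposite signs in the replicate numbers.

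**Figure D4:**
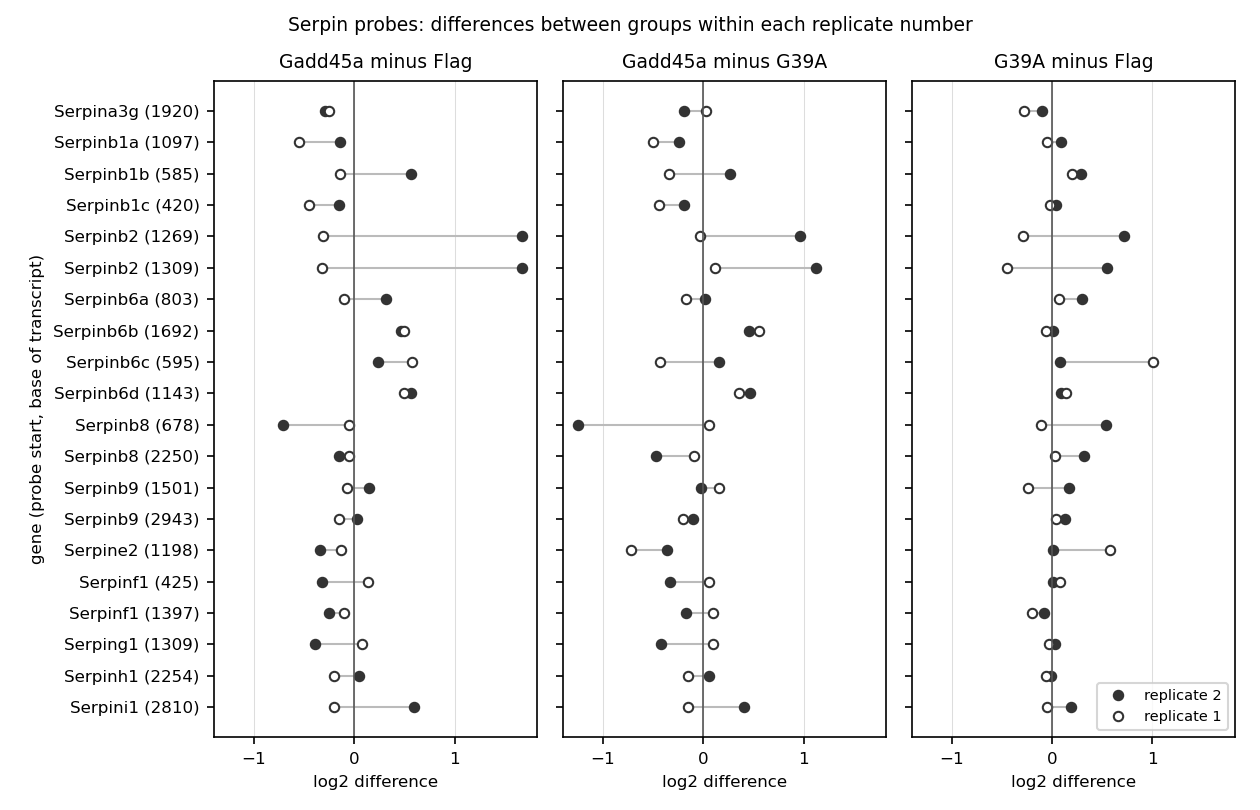
Log2 differences Gadd45a minus Flag, Gadd45a minus G39A and G39A minus Flag within replicate 2 (filled) and replicate 1 (open) for the serpin probes described in the text that were well above background on all 6 arrays. Serpinb6b and Serpinb6d lie right of 0 in both replicate numbers in the panels with Gadd45a, and Serpinb2 reaches 1.67 in Gadd45a minus Flag on replicate 2 only.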

How the data were processed

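Spot intensity values came from scanner files that the authors made with Agilent Feature Extraction 10.7, per the submitters' processing notes; per the file headers they were background-subtracted, with surrogate values for dim spots, and not scaled between arrays. The deposited marks (0 or 1, "other" values) tell outlier and saturated spots, and spots well above background. The deposited log2 value table was used as an alternative only. Its columns follow their own arrays (r at least 0.9989), and how it was normalized is not given in the sources used here. Probe coordinates are those of mm9, per the file headers.

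Spots of a probe were averaged without outliers and controls, log2 was taken, and each array's 75th percentile subtracted. A probe was tested if well above background on both arrays of a group or all 3 of a replicate number, which kept 25393. limma 3.58 (R 4.3; lmFit, eBayes, adjusted p under 0.05) compared replicate numbers with group as covariate (2 residual degrees of freedom), and groups without covariates (3). Same-numbered arrays deviated together (r 0.930 to 0.933 for every pair), so the numbers pair the arrays. Fits were tested on simulated data. Members with a detected probe were named, and from each of 15 lists the 2 genes each way of smallest p; other gene names were chosen after their values were seen. Members, lists and motifs were chosen with earlier results of these data known. The counts hold every member, and the values of 1 member are not reported here. RefSeq symbols matched 67 of 76 probes, and the tested probes of Serpina3g, Serpina3i and Serpinb6c were among those without a match. Alternatives covered background, scaling, filter, probe choice, blocks and leaving out each array. The number of arrays limits the precision.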

Additional observations from a re-analysis of the deposited data

Results flagged for a closer look

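Serpinb3c (probe at base 1463) had opposite differences in the 2 replicate numbers, which was not tested. In Gadd45a minus Flag it was -2.50 on replicate 2 and 1.54 on replicate 1 (log2), and in G39A minus Flag it was -2.47 on replicate 2 and 0.80 on replicate 1. The replicate 2 signals of Gadd45a (4.35) and G39A (4.63) were not well above background, so the negative values rest on dim signals, and the Flag signals were 26.3 on replicate 2 and 25.5 on replicate 1. No group of 4 or more arrays existed in which a single array could be examined for standing apart.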

How the results depend on the processing

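The number of serpin probes called between replicate numbers was 22, and 18 (1 probe per gene) to 26 (normexp) under the alternatives, 21 to 23 when 1 array was left out, where its partner also drops out. Over all probes it was 13939, and 9495 to 14902 under the alternatives, 10080 to 10738 when 1 array was left out. Of 418 alternative values of single serpin probes, 0 changed direction where called, 17 lost the call (Serpinb6a and Serpinb1b) and 22 gained it (Serpinb2, Serpinb3c, Serping1 and Serpinc1). Serpinb2 passed with normexp, with the filter of all 6 arrays and without either Gadd45a array, and Serpinb3c with normexp, without a group term and without either Flag array, where its replicate 2 signals were all dim. In the group comparisons no serpin probe was called under any alternative, among 480 values each. With the replicate block 0 of 25393 probes were called in each comparison, with the lowest adjusted p at 0.251 in Gadd45a against Flag, 0.171 in Gadd45a against G39A and 0.206 in G39A against Flag. The block raised the probes of unadjusted p under 0.05 to 2002, 2101 and 763 in the same order. Slide as a random block gave 19 calls in Gadd45a against Flag, 0 of them serpins; the cause was not tested. Slide as a fixed block, added after seeing the data, gave 0. When 1 array was left out, 0 probes were called in any group comparison, with the lone array of a group assumed to vary like the others. Dim probes limit what can be said of 45 serpin probes that were not tested.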
